A study of Salmo salar with 72 samples.

Results

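The measurements followed 5 genes of the integrated stress response: the ATF3-like gene LOC106607825, the ddit3 gene LOC106582666, the ppp1r15a-like gene LOC106561078, chac1 and slc3a2. They were chosen by name, with earlier results of these data known, as 5 of the 25830 genes of the expression table. All 5 passed the filter on low values in every fit. The samples were primary hepatocytes of 6 male Atlantic salmon, grown on porous polystyrene scaffolds coated with laminin and kept in serum-containing medium. Cells were exposed for 48 h to arsenite (AsIII, 3, 10, 30 or 100 µM), arsenate (AsV, 10, 50 or 100 µM) or arsenobetaine (AsB, 10, 50, 100 or 500 µM). Each compound had untreated control cells of its own, so that the 72 libraries formed 14 groups. AsIII and AsB groups held 1 library from each of the 6 fish and AsV groups 1 from each of fish 1 to 3, so replicates of a group were different animals. Compounds and doses follow the sample titles. Other label texts conflict with these on both: they name an arsenosugar, which no title names, and the exposure protocol lists arsenite only up to 30 µM, so the identity of the groups rests on the titles.

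In the integrated stress response, kinases that sense misfolded protein, amino acid shortage, heme shortage or viral RNA phosphorylate the initiation factor eIF2. General translation then falls while the transcription factor ATF4 is made, and ATF4 with its partners switches on further transcription factors, amino acid transporters and enzymes. The roles named below are known mainly from mammals, in which arsenite is a standard trigger of this response. ATF3 and DDIT3 (also called CHOP) are transcription factors of the pathway. PPP1R15A brings protein phosphatase 1 to eIF2 and so reverses the phosphorylation. CHAC1 breaks down glutathione, and SLC3A2 is the heavy chain that carries several amino acid exchangers to the cell surface. Salmon carry additional copies of many of these genes from a genome duplication in their ancestry.

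Library depth was 30.9 to 86.4 M reads (median 38.6 M), and the lowest read count of any of the 5 genes in any library was 125. The number of genes listed at 0 had a median of 208.5 in AsIII, 249.5 in AsV and 1608 in AsB libraries. Among AsIII and AsV libraries it exceeded 1000 in 2 AsIII libraries (30 µM of fish 5 and 100 µM of fish 1) and in the 3 exposed AsV libraries of fish 3. These are named where a result rests on them. Of the AsB libraries, all exceeded 1000 except those of fish 2 in the control and at 50 and 100 µM. The part of this in the AsB results was not tested. The summed level of 17 hepatocyte markers (albumin, apolipoprotein A-I, fibrinogen and others) lay between 4004430 and 6346310 normalized counts in every library. No hepatocyte marker was at 0 throughout a group except LOC106569632 at 10 µM AsB. The sums of 9 erythroid, 2 leukocyte, 6 endothelial and 5 biliary markers did not exceed 842, 182, 789 and 457 normalized counts. The markers alas2, slc4a1, csf1r, lcp1 and krt19 were not analysed and are not in these sums, so the sums do not bound these cell types. Erythroid sums had medians of 135.7 in AsIII controls, 535 at 3 µM, 157.9 at 10 µM, 40.3 at 30 µM and 44.5 at 100 µM AsIII, and their part in the results was not tested. In bulk samples, fewer cells of a type and less RNA per cell cannot be told apart.

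AsIII raised all 5 genes at 3, 10 and 30 µM, and the dose with the highest level differed between them. At 100 µM the ddit3 gene was not told apart from its control, whereas the other 4 were higher than theirs. The chac1 and slc3a2 genes peaked at 10 µM in 6 of 6 fish, the ATF3-like gene at 30 µM in 6 of 6 fish, and the ppp1r15a-like gene at 30 µM in 4 fish and at 10 µM in 2. The share of all 25801 genes tested that rose was 29.5% at 3 µM, 26.8% at 10 µM, 23.9% at 30 µM and 22.6% at 100 µM. With scaling by library size in place of the deposited size factors, the median of all genes moved from 0.05 to -0.21, from 0.06 to -0.24, from 0.04 to -0.09 and from 0.04 to -0.05 on the log2 scale. The shares of genes that rose were then 21.9%, 16.9%, 19% and 19.5% and those that fell 36%, 35.2%, 23.8% and 21.2%, against 25%, 20.5%, 17.7% and 17.3% with the deposited factors. The same members passed the threshold in these 4 comparisons under that scaling.

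**Figure D1:**
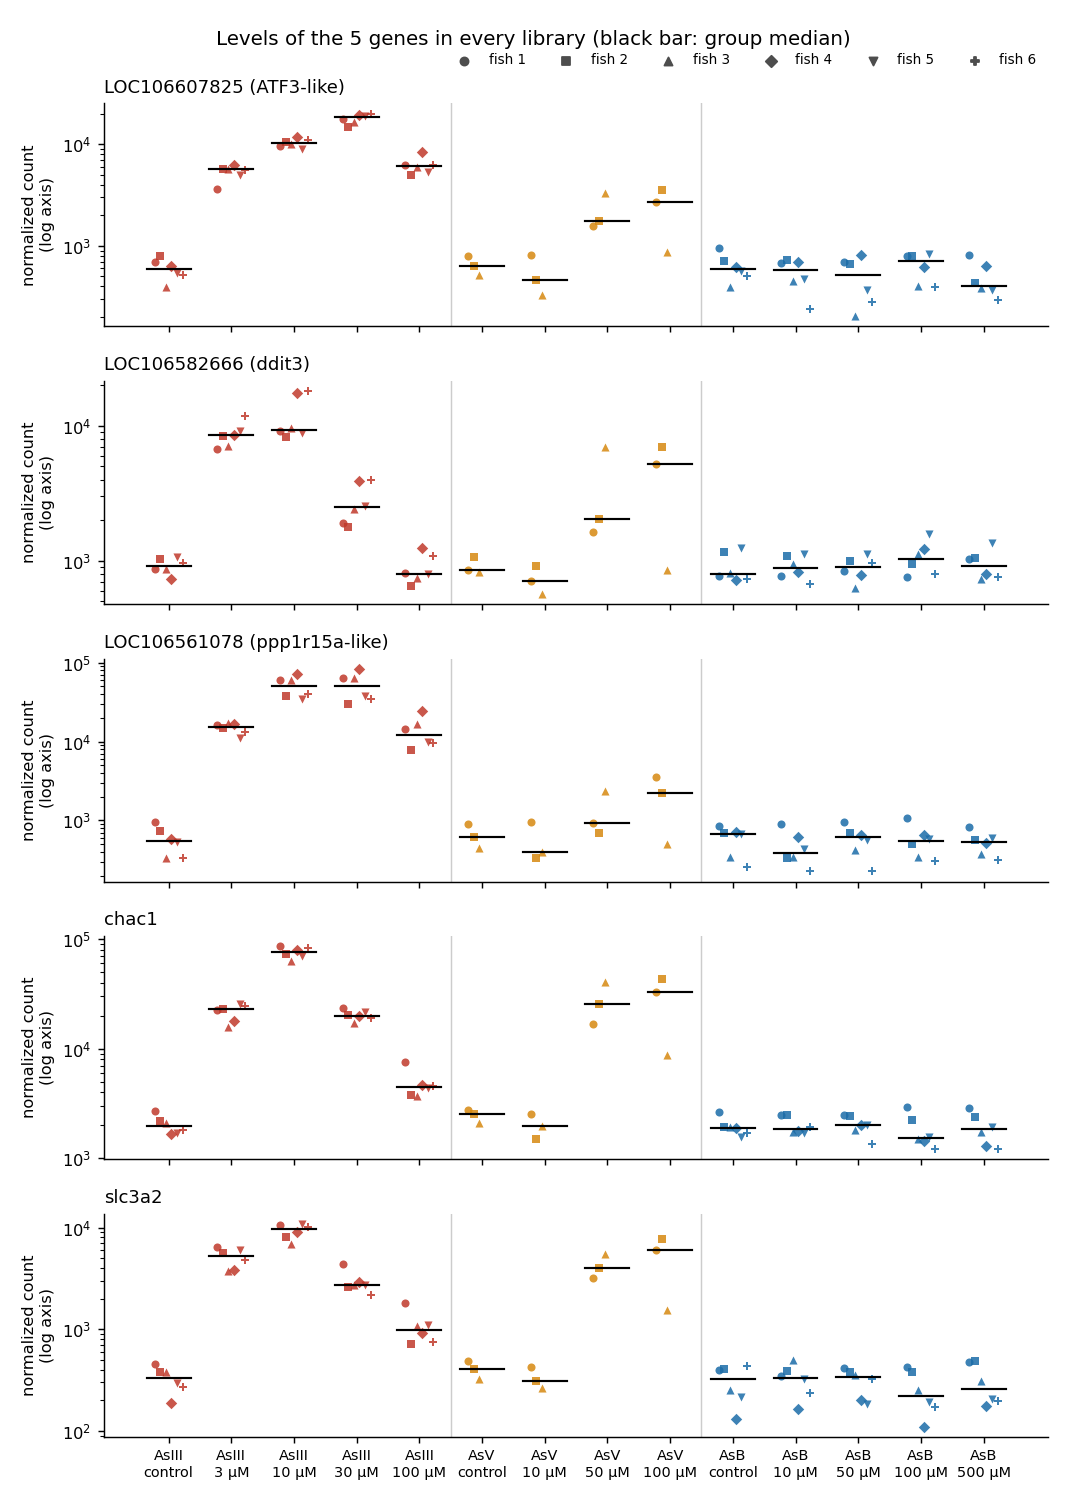
Normalized counts (log axis) of the 5 genes in each of the 72 libraries, by compound and dose, with a marker shape per fish and a black bar at the group median. The 4 exposed AsIII groups stand above the AsIII control for every gene except LOC106582666 at 100 µM, the AsV groups of 50 and 100 µM spread widely, and every AsB range overlaps that of the AsB control.

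The ATF3-like gene LOC106607825 had a lowest, median and highest level of 391, 592 and 794 normalized counts in the AsIII controls. At 3 µM the values were 3619, 5653 and 6271, and at 10 µM 8892, 10228 and 11747. At 30 µM they were 14704, 18333 and 20024, and at 100 µM 5002, 6112 and 8425. No exposed library overlapped the controls, and the ranges at 3, 10 and 30 µM were apart from each other. The log2 changes ± SE against control were 3.17 ± 0.14 at 3 µM, 4.14 ± 0.14 at 10 µM, 4.93 ± 0.14 at 30 µM and 3.39 ± 0.14 at 100 µM (limma adjusted p = 3.6e-19, 3.24e-22, 7.43e-24 and 1.66e-18). These are folds of 8.98, 17.6, 30.5 and 10.5 on the log2(value + 1) scale. Each step up to 30 µM passed the threshold (0.97 ± 0.14 from 3 to 10 µM and 0.79 ± 0.14 from 10 to 30 µM), as did the fall of 1.54 from 30 to 100 µM. The levels of LOC106607825 at 3 and 100 µM differed by 0.23 ± 0.14 (adjusted p = 0.176), a difference that passed the threshold with library-size scaling (0.41 ± 0.14, adjusted p = 0.0126).

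The ddit3 gene LOC106582666 encodes a factor tied in mammals to cell death under prolonged stress. Its lowest, median and highest AsIII control values were 738, 921 and 1067 normalized counts. They were 6716, 8527 and 11904 at 3 µM and 8201, 9355 and 18106 at 10 µM. They were then 1792, 2483 and 3982 at 30 µM and 647, 803 and 1251 at 100 µM. Every library at 3, 10 and 30 µM lay above every control library, and the 100 µM range covered the control range. At 10 µM the cells of fish 4 (17520) and fish 6 (18106) stood well above the other 4 fish, whose values were 8201 to 9605. Against control, LOC106582666 rose by 3.21 ± 0.21 at 3 µM, 3.61 ± 0.21 at 10 µM and 1.52 ± 0.21 at 30 µM (adjusted p = 1.1e-13, 1.29e-14 and 1.32e-06). At 100 µM the log2 change was -0.08 ± 0.21, with a 95% confidence interval of -0.52 to 0.35 (adjusted p = 0.782), and the value was higher in 2 and lower in 4 of 6 fish. The step from 3 to 10 µM was 0.40 ± 0.21 (adjusted p = 0.158; 0.0467 with the fish as a block). Between 10 and 100 µM the level of LOC106582666 fell by 3.70 on the log2 scale, the widest fall between these doses among the 5 genes after that of chac1.

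The ppp1r15a-like gene LOC106561078, the feedback arm of the set, had the largest rise of the 5 at every AsIII dose. Its lowest, median and highest control values were 332, 555 and 950 normalized counts. At 3 µM they were 11174, 15469 and 17217, and at 10 µM 34089, 49849 and 71119.9. At 30 µM they were 30296, 50304 and 83743, and at 100 µM 7915, 12101 and 24079. The exposed libraries were all far above the controls, and the 10 and 30 µM ranges overlapped over most of their length. The log2 changes were 4.77 ± 0.29, 6.50 ± 0.29, 6.50 ± 0.29 and 4.57 ± 0.29 from the lowest to the highest dose (adjusted p = 7.8e-14, 1.6e-16, 4.52e-16 and 1.88e-12). By log2 rise, LOC106561078 ranked 121, 40, 3 and 5 of the 25801 genes. The difference between 30 and 10 µM was 0.00 ± 0.29, with a 95% confidence interval of -0.59 to 0.60, and that between 100 and 3 µM was -0.21 ± 0.29 (-0.80 to 0.39), so neither order could be told apart. The main fit has no fish term, and within a fish the difference between 30 and 10 µM ran from -0.31 to 0.24. At 10 and 30 µM, the cells of fish 1, 3 and 4 held 59622 to 83743 counts of LOC106561078 and those of fish 2, 5 and 6 held 30296 to 40077.

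The chac1 gene rose steeply to 10 µM and came down at higher doses. The lowest, median and highest control values were 1659, 1955 and 2709 normalized counts. They were 15633, 22773 and 25255 at 3 µM and 63218, 76088 and 85755 at 10 µM. They were 17272, 19914 and 23211 at 30 µM and 3675, 4490 and 7522 at 100 µM. All 4 exposed ranges of chac1 were above the controls, and the 3 and 30 µM ranges overlapped while the 10 µM range stood alone. The log2 changes were 3.40 ± 0.14, 5.23 ± 0.14, 3.33 ± 0.14 and 1.21 ± 0.14 (adjusted p = 1.05e-19, 9.34e-25, 6.37e-19 and 3.74e-08). From 3 to 10 µM chac1 rose by a further 1.83 ± 0.14, and from 10 to 100 µM it fell by 4.03. Its levels at 30 and 3 µM differed by -0.07 ± 0.14, with a 95% confidence interval of -0.36 to 0.21 (adjusted p = 0.69). The highest 100 µM value of chac1 was that of fish 1, whose library had over 1000 genes at 0, and without the 2 such AsIII libraries the change at 100 µM was 1.07 ± 0.13.

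The slc3a2 gene also rose to 10 µM and came down at higher doses. Its lowest, median and highest control values were 190, 335 and 458 normalized counts. They were 3738, 5232 and 6439 at 3 µM and 6899, 9630 and 10892 at 10 µM. They were 2180, 2740 and 4337 at 30 µM and 715, 991 and 1795 at 100 µM. No exposed library of slc3a2 reached down to the controls, and the 100 µM range was apart from the 30 µM range. The log2 changes were 3.97 ± 0.21, 4.85 ± 0.21, 3.17 ± 0.21 and 1.66 ± 0.21 (adjusted p = 2.16e-16, 2.18e-18, 2.35e-13 and 1.68e-07). All 6 differences between exposed AsIII doses passed the threshold for slc3a2, among them 0.88 ± 0.21 from 3 to 10 µM and -0.80 ± 0.21 from 3 to 30 µM. The change at 100 µM was 1.50 ± 0.19 without the 2 AsIII libraries with over 1000 genes at 0.

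Between exposed AsIII doses, 4 of the 5 genes rose from 3 to 10 µM, where 14.6% of all genes rose. From 10 to 30 µM, 1 of the 5 rose and 3 fell, beside 9.98% and 11.4% of all genes. From 3 to 30 µM, 2 rose and 2 fell, beside 23.3% and 24.2%. All 5 fell from 10 to 100 µM, beside 16.3% of all genes, and 3 fell from 3 to 100 µM, beside 25.7%. From 30 to 100 µM all 5 fell, whereas 1.53% of all genes fell and 0.147% rose. Scaling by library size shifted the median log2 change over all genes by more than 0.1 in 4 of these comparisons, to 0.13 from 10 to 30 µM, 0.17 from 3 to 30 µM, 0.18 from 10 to 100 µM and 0.20 from 3 to 100 µM. The shares of all genes that rose and fell were then 16.7% and 6.49%, 30.2% and 19.8%, 24% and 9.62%, and 33.6% and 20.3%, against 9.98% and 11.4%, 23.3% and 24.2%, 13.6% and 16.3%, and 24.9% and 25.7% with the deposited factors. The falls of the 5 genes from 30 to 100 µM were 1.54, 1.60, 1.93, 2.12 and 1.51 on the log2 scale, in the order LOC106607825, LOC106582666, LOC106561078, chac1 and slc3a2.

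**Figure D2:**
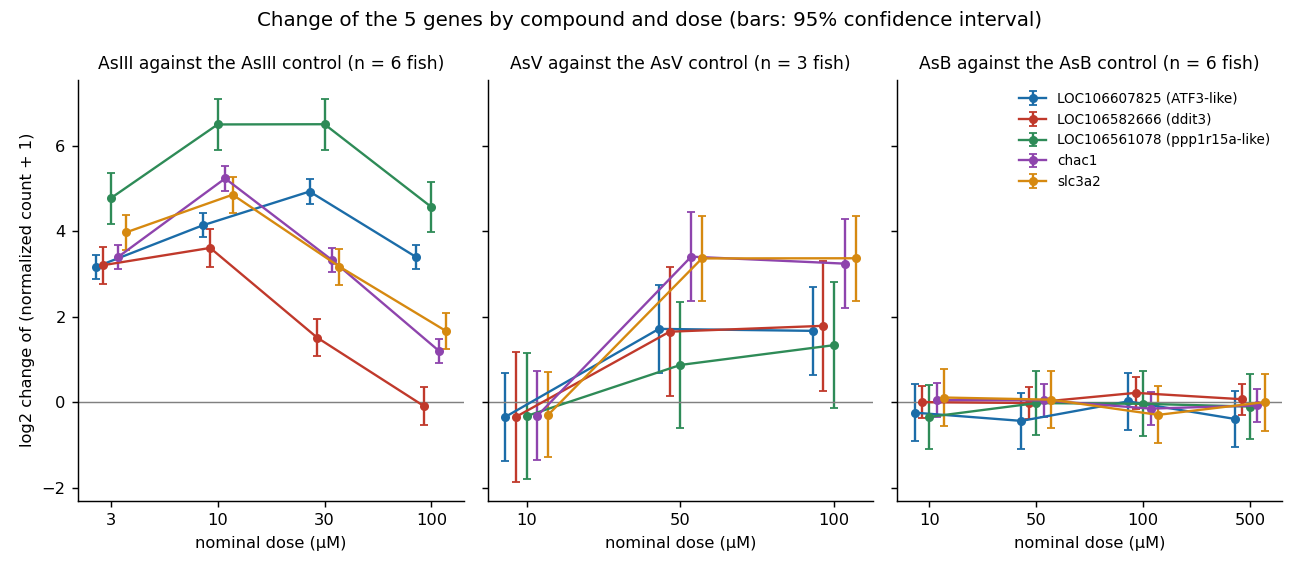
Log2 change of the 5 genes (vertical axis) at each nominal dose (horizontal axis, categories in µM) against the control of the same compound, with 95% confidence intervals. Under AsIII the curves of chac1, slc3a2 and LOC106582666 turn down after 10 µM and that of LOC106607825 after 30 µM, under AsV chac1 and slc3a2 lie above 3 at 50 and 100 µM, and under AsB all intervals include 0.

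AsV raised chac1 and slc3a2 at 50 and 100 µM, and none of the 5 genes passed the threshold at 10 µM. At 50 µM the ATF3-like gene also rose, so that 3 of the 5 genes passed, beside 4.23% of all 25465 genes that rose. At 100 µM chac1 and slc3a2 passed, beside 4.47% of all genes. At 10 µM, 0 of the 5 genes and 0% of all genes passed with limma, 0 of the 5 had an unadjusted p under 0.05, and edgeR and DESeq2 also called 0 of the 5. With DESeq2, 2 genes of the whole table were called at 10 µM and with edgeR 0, and 116 had an unadjusted p under 0.05. Only 3 fish had AsV libraries, and 1 of them, fish 3, ran against the others between the 2 upper doses.

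The chac1 gene stood at 2738, 2513 and 2087 normalized counts in the AsV controls of fish 1, 2 and 3, and at 2516, 1507 and 1981 at 10 µM. At 50 µM the values were 16699, 25437 and 40267, and at 100 µM 32486, 42991 and 8728. Every library at 50 and 100 µM was above every control library, and fish 3 was the highest of the 3 at 50 µM and the lowest at 100 µM. The log2 changes of chac1 were 3.41 ± 0.48 and 3.24 ± 0.48 (adjusted p = 0.00165 and 0.00261). Leaving out fish 2 gave 3.44 (adjusted p = 0.0519) at 50 µM and 2.82 (0.114) at 100 µM, and leaving out fish 1 gave 3.08 (0.0744) at 100 µM.

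The slc3a2 gene stood at 486, 409 and 325 normalized counts in the AsV controls of fish 1, 2 and 3, and at 427, 312 and 265 at 10 µM. The values were 3224, 4028 and 5486 at 50 µM and 5979, 7809 and 1538 at 100 µM. Again the exposed libraries of the 2 upper doses did not overlap the controls, and fish 3 was out of order with the other fish. The log2 changes of slc3a2 were 3.36 ± 0.46 and 3.37 ± 0.46 (adjusted p = 0.00152 and 0.00197). Leaving out fish 1 or fish 2 gave adjusted p = 0.0671 and 0.0805 at 100 µM, and the 50 µM call held without any 1 fish (highest adjusted p = 0.0368).

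The ATF3-like gene LOC106607825 stood at 790, 628 and 513 normalized counts in the AsV controls of fish 1, 2 and 3 and at 819, 464 and 329 at 10 µM. It stood at 1553, 1764 and 3313 at 50 µM and at 2688, 3532 and 869 at 100 µM. All 6 values at the upper doses exceeded the controls, the lowest of them, fish 3 at 100 µM, by a small margin. The log2 change of LOC106607825 was 1.72 ± 0.47 at 50 µM (adjusted p = 0.0452) and 1.67 ± 0.47 at 100 µM (adjusted p = 0.0522, 0.0416 with the fish as a block and 0.0438 with library-size scaling). The 50 µM call was lost without fish 1, 2 or 3 (adjusted p = 0.126, 0.191 and 0.089). At 100 µM, leaving out fish 3 gave 2.13 (adjusted p = 0.00579), and edgeR and DESeq2 on the recovered reads called it too (adjusted p = 0.0253 and 0.00078).

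The ddit3 and ppp1r15a-like genes did not pass against the AsV control at any dose. For LOC106582666 the values of fish 1, 2 and 3 were 856, 1062 and 821 in the controls, 712, 913 and 567.8 at 10 µM, 1634, 2048 and 6944 at 50 µM and 5241, 6939 and 849 at 100 µM. The 50 µM values were all above the controls, whereas fish 3 at 100 µM lay within them. The log2 changes were 1.65 ± 0.69 at 50 µM (adjusted p = 0.178) and 1.79 ± 0.69 at 100 µM (adjusted p = 0.15), the second being 2.66 without fish 3 (adjusted p = 0.0018) and called by DESeq2 (adjusted p = 0.0202). For LOC106561078 the values of fish 1, 2 and 3 were 902, 612 and 447 in the controls, 961, 329.9 and 402 at 10 µM, 925, 693 and 2379.7 at 50 µM and 3561, 2245 and 500 at 100 µM. Both upper doses of LOC106561078 overlapped the control range. The log2 changes were 0.87 ± 0.67 and 1.34 ± 0.67 (adjusted p = 0.479 and 0.27), with 95% confidence intervals of -0.59 to 2.34 and -0.13 to 2.80, and without fish 3 the change at 100 µM was 1.93 (adjusted p = 0.0413).

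For all 5 genes, fish 3 had its highest AsV value at 50 µM, and fish 1 and 2 had theirs at 100 µM. Among further genes described below, atf3, atf4, LOC106564394, LOC106591110, LOC106566144, LOC106584628, LOC106603161 and trib3 had the same peak doses. The genes LOC106583502, 4f2, LOC106598281 and LOC106607446 did not. The pattern was thus not particular to the 5 genes, and its share over all genes was not determined. The 3 exposed AsV libraries of fish 3 were the AsV libraries with over 1000 genes at 0, and the part of this in the peak doses was not tested. Between 50 and 100 µM AsV, 0 of the 5 genes and 0% of all genes differed with limma, and 0 of the 5 had an unadjusted p under 0.05 (342 of all genes). EdgeR and DESeq2 also called 0 genes there. Against 10 µM AsV, 3 of the 5 rose at 50 µM and the same number at 100 µM (LOC106607825, chac1 and slc3a2), beside 3.99% and 4.39% of all genes. Without fish 2 only slc3a2 passed at 50 µM and none of the 5 at 100 µM, without fish 3 all 5 passed at 100 µM, and the rise of LOC106607825 was lost at 50 µM without fish 1, 2 or 3 and at 100 µM without fish 1. The shares of all genes against 10 µM in these runs are not given here. For 100 µM AsV against control, 0.585% of all genes were called without fish 2 and 10.3% without fish 3. These member counts therefore cannot be told apart from a change over all genes.

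Under AsB none of the 5 genes passed the threshold at doses up to 500 µM. The median of LOC106607825 was 593 normalized counts in AsB controls and 577, 515, 707 and 407 at 10, 50, 100 and 500 µM. The median of LOC106582666 was 796 in controls and 887 to 1027 in the exposed groups, and that of LOC106561078 was 683 in controls and 390.1 to 608 in the exposed groups. The medians of chac1 were 1892 in controls and 1526 to 2006 in the exposed groups, and those of slc3a2 326 and 221 to 339.9. All exposed ranges overlapped the control range. With limma, 0 of the 5 genes passed at 10, 50, 100 and 500 µM, beside 0% of all 25492 genes at each dose, and 0 of the 5 had an unadjusted p under 0.05 at any dose. Of all genes, 790, 542, 715 and 848 had such a p, edgeR called 0 at each dose, and DESeq2 called 2, 1, 0 and 2. At 500 µM the 95% confidence intervals of the log2 change were -1.05 to 0.27 for LOC106607825, -0.29 to 0.44 for LOC106582666 and -0.85 to 0.66 for LOC106561078. They were -0.46 to 0.32 for chac1 and -0.66 to 0.67 for slc3a2.

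Between the 3 control groups none of the 5 genes passed the threshold. With limma, 0 of the 5 passed in each of the 3 pairs of controls, beside 0% of all 25830 genes, and 0 of the 5 had an unadjusted p under 0.05 in any pair. Of all genes, 0.635% (AsIII against AsV), 4.12% (AsIII against AsB) and 4.04% (AsV against AsB) had such a p. EdgeR called 0, 0 and 1 genes in these pairs and DESeq2 0, 4 and 2.

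The compounds differ in structure: AsIII and AsV are inorganic, with trivalent arsenic in the first and pentavalent arsenic in the second, and AsB is an organic arsenic compound with methyl groups on the arsenic. Their responses, each being a dose minus its own control, were compared in 7 pairs at matched doses within a fit over all 72 libraries, each pair adjusted over all 25830 genes. This fit uses a shared spread for each gene over all groups, so the wider scatter of the AsV groups is only partly reflected in its SE. For LOC106582666 the SE of a difference here was 0.50, beside 0.69 for its AsV changes against control in the AsV fit. At 10 µM the AsIII response exceeded the AsV response for all 5 genes, beside 6.94% of all genes. The differences of log2 changes were 4.48 ± 0.49 for LOC106607825, 3.95 ± 0.50 for LOC106582666, 6.81 ± 0.66 for LOC106561078, 5.54 ± 0.39 for chac1 and 5.14 ± 0.54 for slc3a2. The highest adjusted p among these was 1.75e-08, for LOC106582666.

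At 100 µM the 5 genes divided. The ATF3-like and ppp1r15a-like genes had the larger change under AsIII, and ddit3, chac1 and slc3a2 had the larger change under AsV. For ddit3, neither change passed against its own control in the separate limma fits. These changes were -0.08 ± 0.21 under AsIII and 1.79 ± 0.69 under AsV (limma adjusted p = 0.782 and 0.15). LOC106607825 was higher by 1.72 ± 0.49 (adjusted p = 0.0101) and LOC106561078 by 3.23 ± 0.66 (adjusted p = 0.000262) in the AsIII response, beside 6.82% of all genes. LOC106582666 was lower by a log2 difference of -1.87 ± 0.50 (adjusted p = 0.00569), chac1 by -2.04 ± 0.39 (adjusted p = 8.71e-05) and slc3a2 by -1.71 ± 0.54 (adjusted p = 0.022), beside 7.27% of all genes. The calls of LOC106561078 and chac1 held without any 1 fish, with differences of 2.43 to 3.72 and of -2.55 to -1.52 over all alternatives. That of LOC106607825 was lost without fish 3 (1.16, adjusted p = 0.122). That of LOC106582666 was lost without fish 1 (-1.46, 0.137) or fish 2 (-1.30, 0.195), and that of slc3a2 without fish 1 (-1.64, 0.0797) or fish 2 (-1.11, 0.364).

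Set against AsB, the AsIII response at 10 µM was larger for all 5 genes (by 3.60 ± 0.41 for LOC106582666 to 6.84 ± 0.54 for LOC106561078), beside 11.6% of all genes. At 100 µM it was larger for 4 of the 5, beside 7.31% of all genes, with 3.37 ± 0.40 for LOC106607825, 4.60 ± 0.54 for LOC106561078, 1.35 ± 0.32 for chac1 and 1.96 ± 0.44 for slc3a2. For LOC106582666 the difference was -0.31 ± 0.41, with a 95% confidence interval of -1.12 to 0.51. The AsV response was not told apart from the AsB response at 10 µM, where limma, edgeR and DESeq2 called 0 of the 5 genes and 0% of all genes, 0 of the 5 had an unadjusted p under 0.05 and 497 of all genes had one. The 95% confidence intervals there ran from -1.14 to 0.41 for chac1 and from -1.48 to 0.67 for slc3a2. At 50 µM AsV exceeded AsB for 4 of the 5, beside 5.16% of all genes, by 2.15 ± 0.49 for LOC106607825, 1.67 ± 0.50 for LOC106582666, 3.36 ± 0.39 for chac1 and 3.30 ± 0.54 for slc3a2. At 100 µM the same 4 passed, beside 5.81% of all genes, by 1.65 ± 0.49, 1.57 ± 0.50, 3.39 ± 0.39 and 3.66 ± 0.54. In the AsV fit against the AsV control, LOC106582666 did not pass at either dose, nor LOC106607825 at 100 µM. For LOC106561078 the differences were 0.89 ± 0.66 and 1.37 ± 0.66 (adjusted p = 0.478 and 0.206), the second being called by DESeq2 (1.71, adjusted p = 0.0422). Without fish 3 the 50 µM differences of LOC106607825 (1.56, adjusted p = 0.0604) and LOC106582666 (0.88, 0.352) no longer passed. At 100 µM LOC106607825 no longer passed without fish 1 (1.55, 0.111) or fish 2 (1.26, 0.284), and LOC106582666 without fish 1 (1.10, 0.381), fish 2 (1.00, 0.418), fish 5 (1.59, 0.0515) or fish 6 (1.55, 0.0548).

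Library-size scaling changed no call of the 5 genes in these 7 pairs, but it moved the shares of all genes with a larger and a smaller response. They went from 6.94% and 3.74% to 4.46% and 10.1% for AsIII minus AsV at 10 µM, from 11.6% and 8.38% to 7.65% and 16% for AsIII minus AsB at 10 µM, and from 5.16% and 4.41% to 3.98% and 5.15% for AsV minus AsB at 50 µM.

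**Figure D3:**
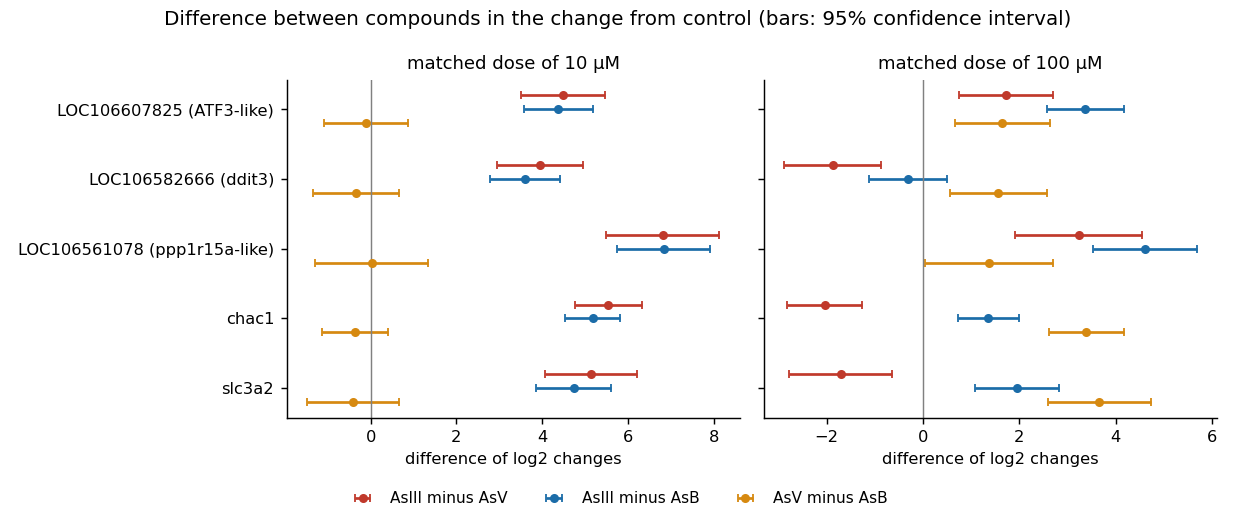
Difference between 2 compounds in the log2 change from control (horizontal axis) for the 5 genes, at matched doses of 10 µM (left) and 100 µM (right), with 95% confidence intervals. At 10 µM both AsIII comparisons lie far right of 0, and at 100 µM AsIII minus AsV is left of 0 for LOC106582666, chac1 and slc3a2 and right of 0 for LOC106607825 and LOC106561078.

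Ordered by median over the 14 groups, the ATF3-like gene was highest at 30 µM AsIII (18333 normalized counts), then at 10, 100 and 3 µM AsIII, then at 100 and 50 µM AsV. The ranges of 100 and 3 µM AsIII overlapped, as did those of the 2 AsV groups, and the 50 µM AsV range stood clear of the next group. The ddit3 gene was highest at 10 µM AsIII (9355), and its ranges overlapped with the next in line all the way down to 50 µM AsV. The ppp1r15a-like gene was highest at 30 and 10 µM AsIII, whose ranges overlapped, and all 4 AsIII groups were clear of 100 µM AsV (2245). The chac1 gene was highest at 10 µM AsIII (76088), clear of 100 µM AsV (32486), 50 µM AsV (25437), 3 µM AsIII and 30 µM AsIII, which overlapped in that order. The slc3a2 gene had the same leading group (9630), here overlapping with 100 µM AsV (5979), and 100 µM AsIII (991) was clear of both its neighbours for chac1 and slc3a2. For all 5 genes the controls, the 4 AsB groups and 10 µM AsV filled the lowest places, joined for LOC106582666 by 100 µM AsIII, and neighbours among them overlapped.

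Of the copies of these genes in the table, those of atf3, ddit3 and ppp1r15a and 1 of slc3a2 rose under AsIII, and another slc3a2 gene fell. Without gene sequences, and with the treatment of reads that match several genes not given in the sources used here, reads could be split between near-identical copies, so each copy's value is uncertain. The annotated atf3 copy rose by 0.44 ± 0.15, 1.11 ± 0.15, 2.78 ± 0.15 and 1.46 ± 0.15 at 3, 10, 30 and 100 µM AsIII, and like LOC106607825 it was highest at 30 µM in 6 of 6 fish. The second ddit3 copy, LOC106566144, rose by 2.41 ± 0.14, 2.55 ± 0.14 and 0.68 ± 0.14 up to 30 µM and gave -0.25 ± 0.14 at 100 µM (adjusted p = 0.166). The second ppp1r15a-like gene, LOC106584628, rose by 2.03 ± 0.17, 2.61 ± 0.17, 2.86 ± 0.17 and 1.98 ± 0.17. The ppp1r15b gene LOC106583502, which in mammals encodes the constitutive partner of the same phosphatase, rose by 0.66 ± 0.16 and 0.47 ± 0.16 at 3 and 10 µM and did not pass at 30 and 100 µM (-0.17 ± 0.16 and -0.32 ± 0.16).

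Of the further slc3a2 genes, LOC106603161 rose by 1.95 ± 0.16, 1.81 ± 0.16 and 0.64 ± 0.16 at 3, 10 and 30 µM AsIII and gave 0.31 ± 0.16 at 100 µM (adjusted p = 0.119). The gene named 4f2 fell by 0.43, 0.43, 0.78 and 0.81 on the log2 scale. In AsIII controls it had the highest mean of these genes, 8408 normalized counts, beside 1480 for LOC106603161 and 329 for slc3a2. The copies atf3 (2080) and LOC106566144 (1507) also stood above their members there (596 and 926). LOC106584628 (207) stood below LOC106561078 (576). The fold of a member is therefore not that of all copies of its gene together. Under AsV LOC106603161 rose by 1.73 ± 0.43 at 50 µM and 1.56 ± 0.43 at 100 µM (adjusted p = 0.0282 and 0.0451), and LOC106584628 rose by 1.64 ± 0.43 at 100 µM (adjusted p = 0.0369). With library-size scaling, the rises of atf3 at 3 µM AsIII (0.18, adjusted p = 0.309) and of LOC106583502 at 10 µM (0.16, 0.434) were lost, and LOC106566144 was lower than control at 100 µM (-0.33, 0.0458). The chac2-like gene LOC106598281, of a related enzyme, had a log2 change of -1.93 ± 0.77 at 3 µM (adjusted p = 0.0336) at levels of at most 25.0 normalized counts, and did not pass at the other doses. Within each fish, the change of the member was set beside that of its copy for 5 pairs at 4 AsIII doses, 20 comparisons in all, as a description with no test. The member had the higher log2 change in 6 of 6 fish in 19 of the 20, with mean differences from 0.80 to 5.29 on the log2 scale. The members were chosen with earlier results of these data known, so this count is not an independent result. In the ddit3 pair at 100 µM the mean difference was 0.17, with the higher change in 5 of 6 fish.

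**Figure D4:**
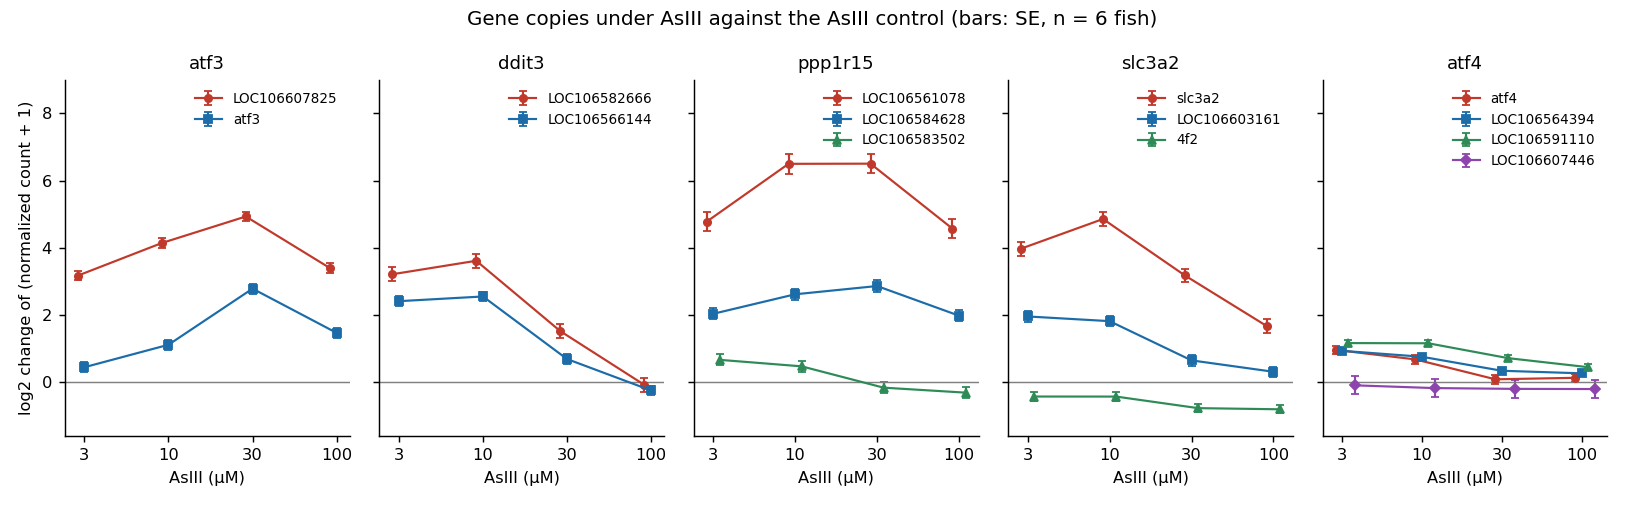
Log2 change (vertical axis) of copies of atf3, ddit3, ppp1r15, slc3a2 and atf4 at 4 AsIII doses (horizontal axis, µM) against the AsIII control. Bars are the SE from the limma fit over all AsIII libraries, with 6 fish per group. In the first 4 panels the red curve of the member lies above its copies, 4f2 lies below 0, and the atf4 genes stay below 1.3 throughout.

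The atf4 genes encode the factor upstream of the 5, which in mammals is regulated mainly through translation. At the RNA level their changes under AsIII did not exceed 1.16 on the log2 scale. The gene named atf4 stood at 1363 ± 199 normalized counts in AsIII controls (SD, n = 6), 2661 ± 464 at 3 µM and 2167 ± 234 at 10 µM. It rose by 0.96 ± 0.13 and 0.67 ± 0.13, and gave 0.08 ± 0.13 and 0.13 ± 0.13 at 30 and 100 µM (adjusted p = 0.644 and 0.46). Under AsV atf4 rose by 1.21 ± 0.22 at 50 µM and 1.01 ± 0.22 at 100 µM (adjusted p = 0.00566 and 0.0138). The copies LOC106564394 and LOC106591110 rose at all 4 AsIII doses, by 0.26 ± 0.08 to 0.93 ± 0.08 and by 0.44 ± 0.10 to 1.16 ± 0.10, the first losing its 100 µM call with library-size scaling (0.18, adjusted p = 0.0926). The copy LOC106607446 did not pass at any AsIII dose, with changes between -0.21 ± 0.26 and -0.10 ± 0.26.

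Beyond the 5 members, 8 lists of other genes of the pathway were examined, with 28, 14, 14, 25, 26, 6, 15 and 40 genes tested under AsIII, in the order in which they are described. The counts leave out only the members, so the copies and atf4 genes described above are counted again in these lists. Over all lists, 88 rose and 30 fell at 3 µM AsIII, which is 52.4% and 17.9% beside 29.5% and 25% of all genes, with a median log2 change of 0.52 beside 0.05. At 10 µM 94 rose and 20 fell, 56% and 11.9% beside 26.8% and 20.5% (median 0.61 beside 0.06). At 30 µM 69 rose and 18 fell, 41.1% and 10.7% beside 23.9% and 17.7% (0.38 beside 0.04). At 100 µM 59 rose and 20 fell, 35.1% and 11.9% beside 22.6% and 17.3% (0.27 beside 0.04). Under AsV all but 1 of these genes were tested. At 50 µM AsV 29 rose and 5 fell, 17.4% and 2.99% beside 4.23% and 2.74% of all genes (median 0.27 beside -0.07). At 100 µM AsV 32 rose and 3 fell, 19.2% and 1.8% beside 4.47% and 2.21% (0.25 beside -0.06). With library-size scaling 64 list genes rose and 39 fell at 3 µM AsIII, beside 21.9% and 36% of all genes under that scaling. At 10 µM AsIII 67 rose and 34 fell, beside 16.9% and 35.2%. At 30 µM 57 rose and 24 fell, beside 19% and 23.8%, and at 100 µM 55 and 23, beside 19.5% and 21.2%. Under the same scaling 24 rose and 7 fell at 50 µM AsV, beside 3.46% and 2.59% of all genes. At 100 µM AsV 29 rose and 4 fell, beside 3.63% and 2.18%. The counts of single lists below are given with the deposited factors only. With limma, 0 of the list genes passed at 10 µM AsV or at any AsB dose.

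Among 28 eIF2 kinases and initiation factors, 13 rose and 7 fell at 3 µM AsIII, 46.4% and 25% beside 29.5% and 25% of all genes. At 100 µM 4 rose and 7 fell, 14.3% and 25% beside 22.6% and 17.3%. The 2 genes for PERK, the kinase that senses stress in the endoplasmic reticulum, rose at 3 µM (LOC106595807 by 1.96 ± 0.22 and eif2ak3 by 1.26 ± 0.14), as did pkz, a fish kinase of the antiviral PKR type, by 1.61 ± 0.13. The GCN2 gene LOC106610842, for the kinase that senses amino acid shortage, fell by 2.83 from 138 ± 71.6 normalized counts in controls (SD, n = 6). Of 14 other transcription factors, 9 rose and 3 fell at 3 µM (64.3% and 21.4%, beside the same 29.5% and 25%), and 5 rose and 2 fell at 100 µM (35.7% and 14.3%, beside 22.6% and 17.3%). Among those that rose were atf5 (1.95 ± 0.18 at 3 µM) and the C/EBP gamma genes LOC106562805 (1.84 ± 0.17 at 3 µM) and LOC106588039 (1.32 ± 0.20 at 10 µM), which encode partners of ATF4. The C/EBP beta gene LOC106572480 fell by 1.64 at 3 µM.

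Of 14 other feedback genes, 8 rose and 3 fell at 3 µM AsIII, 57.1% and 21.4% beside 29.5% and 25% of all genes. The 4 that rose and 2 that fell at 100 µM, 28.6% and 14.3%, were near the 22.6% and 17.3% of all genes. The pseudokinase gene trib3, an inhibitor of ATF4 and DDIT3 in mammals, rose by 1.95 ± 0.13 at 30 µM and was highest at that dose in 6 of 6 fish, the same dose as LOC106607825. The chaperone gene dnajc3, which restrains PERK, rose by 1.34 ± 0.17 at 100 µM, and its copy LOC106577647 rose by 1.46 ± 0.14 at 3 µM. The protein phosphatase 1 catalytic gene LOC100380634 fell by 1.14 at 30 µM.

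Amino acid genes made up 2 of the lists. Of 25 synthesis enzymes, 13 rose and 4 fell at 3 µM AsIII, 52% and 16% beside 29.5% and 25% of all genes. The 7 that rose and 5 that fell at 100 µM, 28% and 20%, were near the 22.6% and 17.3% of all genes. The one-carbon enzyme gene LOC106580352 (mthfd2) rose by 4.11 ± 0.11 at 10 µM, from 467 ± 59.7 to 8028 ± 487 normalized counts. The proline synthesis genes LOC106601844 and LOC106601926 (pycr1) rose by 4.97 ± 0.59 and 4.82 ± 0.45 at 3 µM, from control means of 8.42 and 22.2 normalized counts. The mitochondrial serine hydroxymethyltransferase shmt2 rose by 4.29 ± 0.64 at 10 µM, from a mean of 3.69 to 52.9 normalized counts. Of 26 transporters, 13 rose and 4 fell at 3 µM AsIII, 50% and 15.4% beside 29.5% and 25% of all genes. At both 50 and 100 µM AsV 10 rose and 1 fell, 38.5% and 3.85%, beside 4.23% and 4.47% of all genes that rose and 2.74% and 2.21% that fell. At 10 µM AsIII, slc1a5 rose by 4.92 ± 0.31 and slc1a4 by 3.13 ± 0.20, both neutral amino acid carriers. The cationic carrier LOC106602957 rose by 4.06 ± 0.16 and the glutamine carrier LOC106609517 (slc38a2) by 2.86 ± 0.17 at the same dose.

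Of 6 other glutathione breakdown genes, 1 rose and 1 fell at 3 µM AsIII, 16.7% each beside 29.5% and 25% of all genes, and 1 rose and 2 fell at 100 µM, 16.7% and 33.3% beside 22.6% and 17.3%. The gamma-glutamyltransferase gene ggt7 rose by 2.48 ± 0.51 at 30 µM, ggt5 fell by 2.58 at 100 µM from a control mean of 13.2 normalized counts, and the ggct gene LOC106588758 fell by 0.69 at the same dose. Of 15 other ATF4 and DDIT3 targets, 8 rose and 2 fell at 3 µM, 53.3% and 13.3% beside the same 29.5% and 25%, and 9 rose at 10 µM, 60% beside 26.8%. The mTOR inhibitor genes LOC106577395 and LOC106612111 (ddit4) rose by 5.18 ± 0.47 at 3 µM and 4.79 ± 0.37 at 10 µM, and sestrin 2, LOC106588768, rose by 4.49 ± 0.44 at 3 µM. The stress hormone gene gdf15, LOC106569003, rose by 4.12 ± 0.64 at 10 µM, to a mean of 51.2 normalized counts.

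The parallel ATF6 and XBP1 arms of the unfolded protein response held 40 genes, of which 23 rose and 6 fell at 3 µM AsIII, 57.5% and 15% beside 29.5% and 25% of all genes. At 100 µM AsIII 25 rose and 0 fell, 62.5% and 0% beside 22.6% and 17.3%. Under AsV 2 rose and 2 fell at 50 µM, 5% each beside 4.23% and 2.74% of all genes, and 3 rose at 100 µM, 7.5% beside 4.47%, shares close to those of all genes. The co-chaperone LOC106576066 (dnajb9) rose by 4.35 ± 0.24, the chaperone LOC106567149 (hspa5, BiP) by 3.30 ± 0.29 and the transcription factor xbp1 by 2.81 ± 0.12 at 3 µM. The gene sdf2l, for a partner of BiP, rose by 2.89 ± 0.17 at 10 µM.

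**Figure D5:**
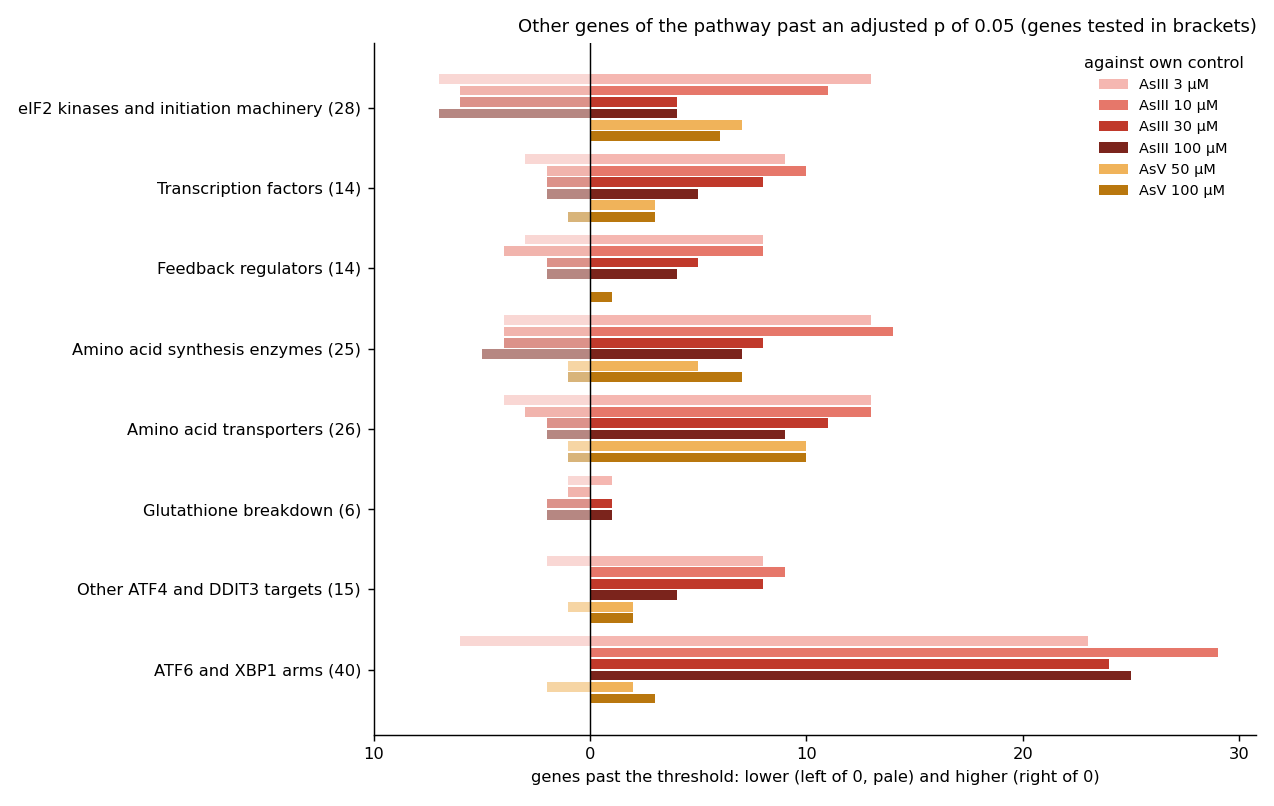
Number of other pathway genes past an adjusted p of 0.05 (horizontal axis, higher to the right of 0 and lower to the left) in 8 lists, with the genes tested in brackets, for 4 AsIII doses and 2 AsV doses against their controls. The list of ATF6 and XBP1 arms has 23 to 29 rises at the AsIII doses, where 22.6% to 29.5% of all genes rose. It has 2 to 3 at the AsV doses, where 4.23% and 4.47% of all genes rose. The lists include the copies of the members and the atf4 genes. The difference between compounds in these counts was not tested.

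Over the 72 libraries, each taken as log2(value + 1) minus the mean of its compound's control group, the most alike of the 5 genes formed 2 pairs. The Pearson correlation was 0.976 between chac1 and slc3a2 and 0.971 between LOC106607825 and LOC106561078. Between a gene of one pair and a gene of the other it ran from 0.828 to 0.852, which were places 197 to 410 among all genes. The ddit3 gene correlated at 0.897 with chac1, 0.875 with slc3a2, 0.715 with LOC106561078 and 0.701 with LOC106607825. The genes most like LOC106607825 were LOC106561078, the AP-1-like gene LOC106584280 (0.962) and the dual specificity phosphatase 1-like gene LOC106604105 (0.961). For LOC106582666 they were its copy LOC106566144 (0.964), the kinase gene LOC106574026 (mknk1, 0.962) and LOC106572608 (fat storage-inducing transmembrane protein 2-like, 0.947). For LOC106561078 they were LOC106584280 (0.979), cnn2 (calponin-2, 0.972) and LOC106613963 (jun, 0.971). For chac1 they were ddt4l (a ddit4-like gene, 0.978), slc3a2 and LOC106602957 (0.975), and for slc3a2 they were slc1a5 (0.976), chac1 and LOC106563457 (stress-induced phosphoprotein 1-like, 0.973). These libraries share fish, controls and the large AsIII effect, so the values describe likeness of course only.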

How the data were processed

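The submitters' processing notes name HISAT2, featureCounts of Subread and DESeq2 1.40.2. The deposited table holds a normalized signal for each gene and library, in which the authors had scaled read counts by library size factors. No genome build is given in the sources used here. Dividing by the step of each library gave whole reads for 100% of values (tolerance 0.01 of a read), with size factors from 0.658 to 1.78. No deposited column was left unused, and promoter sequences were not used here.

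Members and gene lists were chosen with earlier results of these data known. Named genes were the 5 members, their annotated copies and the atf4 genes, the 4 list genes with the largest AsIII change past the threshold in each list, and the 3 genes most correlated with each member.

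A gene was tested when it reached a value of 10 in a number of libraries no smaller than the smallest group. For each compound, limma 3.58.1 in R 4.3.3 was fitted to log2(value + 1) with a mean per group, an intensity trend and robust variances. Fold changes on this scale understate the change of low genes. Responses of compounds and control groups were compared in a fit over all 72 libraries. Tests were 2-sided, with Benjamini-Hochberg adjustment over all genes of a comparison and a threshold of 0.05. Alternatives were edgeR 4.0.16 and DESeq2 1.42.0 on the recovered reads, library-size scaling, no filter, pseudocounts of 0.5 and 10, each fish left out and the fish as a block. The scripts were tested on simulated data.

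A fish number stands for the same animal in every group, so the numbers pair libraries. The main fits did not use this pairing. Deviations from group means correlated at 0.382 (AsIII), 0.190 (AsV) and 0.258 (AsB) on average within a fish, with a lowest value of 0.146, -0.255 and 0.112. Between fish they correlated at -0.0764, -0.0941 and -0.0513. These between-fish values follow largely from subtracting the group means, so they are no separate evidence for the pairing. No 2 libraries of a group agreed within sampling noise over 162 pairs, the lowest chi-square per gene being 18.6. Marker genes alas2, slc4a1, csf1r, lcp1 and krt19 were not analysed here.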

Additional observations from a re-analysis of the deposited data

Results flagged for a closer look

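Each of the 5 genes was examined in each of the 10 groups of 6 libraries, and in 4 of these 50 sets of values 1 lay far from the other 5 (Dixon's criterion at 95%), where chance alone gives about 1 in 20. The criterion was applied to normalized counts without a log scale and only to the 5 genes. The share of all genes that it would flag was therefore not determined. The sets are not independent: all 4 values came from 3 libraries of fish 1, in chac1 and slc3a2, whose levels are strongly correlated. The chac1 gene stood at 7522 normalized counts at 100 µM AsIII, beside 3675 to 4603 in the other fish, and at 2646 in the AsB controls, beside 1562 to 1910. The slc3a2 gene stood at 4337 normalized counts at 30 µM AsIII, beside 2180 to 2943, and at 1795 at 100 µM AsIII, beside 715 to 1092. The 100 µM AsIII library of fish 1 was also 1 of the 2 AsIII libraries with over 1000 genes listed at 0. The part of this in both values was not tested.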

How the results depend on the processing

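Over all alternatives, 1865 gene results kept their side of the threshold, 29 lost the call and 16 gained one. Of the results that passed in the main or the alternative run, 0 reversed direction. Some that passed in neither did change sign, such as LOC106561078 between 50 and 100 µM AsV (-0.28 to 1.82). Under AsIII, the 4 counts of members against control were the same with each fish left out (5, 5, 5 and 4). All 50 member results under AsIII kept their side of the threshold without the 2 AsIII libraries with over 1000 genes at 0. Leaving out 1 fish at a time, the number of the 5 members called ranged from 3 to 5 for the AsIII minus AsV response at 100 µM, where leaving out fish 1 or fish 2 gave 3. It ranged from 0 to 5 for 100 µM AsV against control and against 10 µM AsV, with 5 without fish 3. It ranged from 1 to 2 for 50 µM AsV against control and against 10 µM, and from 2 to 4 for the AsV minus AsB responses at 50 and 100 µM. Against control, the share of all genes called ranged from 0.665% to 1.71% at 50 µM AsV (6.97% with all fish) and from 0.275% to 10.3% at 100 µM AsV (6.68% with all fish). For the other comparisons the share of all genes with a fish left out is not given here. Their member counts therefore cannot be told apart from a change over all genes. DESeq2 called 4 of the 5 members at 100 µM AsV, and 12.8% of all genes at 50 µM, 12.9% at 100 µM and 0.00785% at 10 µM AsV. It called 0.00785%, 0.00392% and 0.00785% at 10, 50 and 500 µM AsB. With the fish as a block, 0.0667% of all genes were called at 500 µM AsB, and of the members LOC106582666 from 3 to 10 µM AsIII and LOC106607825 at 100 µM AsV gained a call, while no other member call changed. The cause of these changes was not tested.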
